A study of Mus musculus with 3 samples.

Results

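The plasma cell secretory program described here is a set of 9 genes, Jchain, Mzb1, Xbp1, Derl3, Tnfrsf17, Prdm1, Irf4, Pou2af1 and Txndc5, out of 30406 genes listed for every library. The genes were taken by symbol and matched by Ensembl ID. The set was selected on known roles in plasma cells with results of these libraries in view, among them the summed levels of Jchain and antibody genes in the untreated Aire knockout against the wild type, so library levels are given as a description. RNA of single nuclei from whole mouse corneas was counted, with nuclei from snap-frozen corneas of 5 mice pooled into each library and no way to assign a nucleus to a mouse. The WT library came from untreated wild-type mice, the KO library from untreated mice lacking Aire, and the KO_PBS library from mice lacking Aire given phosphate-buffered saline (PBS) for 14 days, all at 7 weeks of age per the sample labels. The series' design text instead gives day 7 of treatment and 6 weeks of age, and it describes Aire-deficient mice as a dry eye disease model. The labels name neither the allele nor the strain. Aire, which controls the expression of tissue antigens in the thymus, had 15 UMIs for WT, 27 for KO and 68 for KO_PBS. The labels do not say which part of Aire is deleted, so these counts do not check the genotype.

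Plasma cells are antibody-secreting cells that arise from B cells. IRF4 and BLIMP1, the product of Prdm1, drive this step, and XBP1 then enlarges the endoplasmic reticulum, where antibody chains are folded, joined by disulfide bonds and, when faulty, removed. The J chain joins IgA and IgM monomers into polymers, which epithelia export into tears and other secretions.

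Each group was 1 library, so differences between groups could not be checked against replicates and no p-values were computed. Levels are CPM, the UMIs (unique molecular identifiers, which stand for single RNA molecules) scaled to a common library total, with exact 95% Poisson intervals in brackets that cover counting error only. Over these genes WT held 255925024 UMIs in 96587 barcodes, KO 351335206 in 107031 and KO_PBS 177818671 in 114357. Genes with 50 or more UMIs over a pair of libraries were tested, and one was counted as higher or lower at a ratio of at least 2 with intervals that did not overlap. The median gene had a log2 ratio of 0.24 in KO against WT, 1.27 in KO_PBS against WT and 0.63 in KO_PBS against KO. The deposited KO_PBS list has 31053 genes and those of WT and KO have 32285, so KO_PBS may have been counted with another annotation, and its part in the KO_PBS ratios was not tested. Values set against the median gene are given where they change a call or a direction of the 9 genes. The 3 comparisons share libraries and are not independent of one another. In such sums, fewer cells of a type and less RNA per cell cannot be told apart.

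RefSeq promoter windows (GRCm38.p6, 250 bases before to 50 after a start site) were matched for 8 of the 9 genes, with 3 windows for Txndc5 and 10 in all. Mzb1 has no entry in that table. The 3 stretches given here, of 80 bases each, hold the DNA elements through which the unfolded protein response acts. Capitals mark the element, and each stretch reads 5′ to 3′ along the gene's strand. The Derl3 stretch (chr10:75893212-75893291, plus strand) and the Pou2af1 stretch (chr9:51213593-51213672, plus strand) overlap no annotated gene in GENCODE M21. The Txndc5 stretch (chr13:38528009-38528088, minus strand) lies inside the Txndc5 gene, outside its exons, and under an exon of the antisense gene Gm31834.
Derl3: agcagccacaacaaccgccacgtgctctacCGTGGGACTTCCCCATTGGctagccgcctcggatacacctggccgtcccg
Pou2af1: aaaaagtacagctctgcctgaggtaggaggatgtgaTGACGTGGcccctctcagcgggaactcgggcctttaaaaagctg
Txndc5: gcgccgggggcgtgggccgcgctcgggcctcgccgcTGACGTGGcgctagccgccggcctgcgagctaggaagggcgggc

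The capitals in Derl3 are the ER stress element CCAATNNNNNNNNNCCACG on the opposite strand, which 0.119% of all 32851 windows hold. Those in Pou2af1 and Txndc5 are TGACGTGG, an XBP1-type element held by 0.676% of all windows. Both strands were searched for every motif. No window of the 8 genes searched held the ER stress element II (ATTGGNCCACG, 0.0365% of windows) or an ETS-IRF composite element (GGAANNGAAA, 2.72%). The octamer to which OCT factors and the Pou2af1 product bind (ATGCAAAT, 1.74%) was in none of them either. The IRF-type element GAAANNGAAA (3.44% of windows) was in windows of Tnfrsf17 and Txndc5. The core CCACG (32.8% of windows), which is part of both ER stress elements and overlaps the XBP1-type element on the opposite strand, was in windows of Derl3, Irf4, Pou2af1, Prdm1 and Txndc5. A match describes letters in a window and is not a shown binding site.

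The genes fell into 2 kinds by their level in WT. Of the 9, 6 were near absent from the wild-type cornea, and Xbp1, Prdm1 and Txndc5 were present in every library. In KO all 9 of 9 were higher than in WT, where 20.6% of all genes tested were counted as higher and 8.63% as lower. Against the median gene 7 of 9 were, where 14.8% of all genes were, Xbp1 (0.86) and Txndc5 (0.90) no longer reaching a log2 ratio of 1. That contrast was known when the genes were chosen, so nothing is read from the count. The plot of levels in the 3 libraries shows both kinds.

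**Figure D1:**
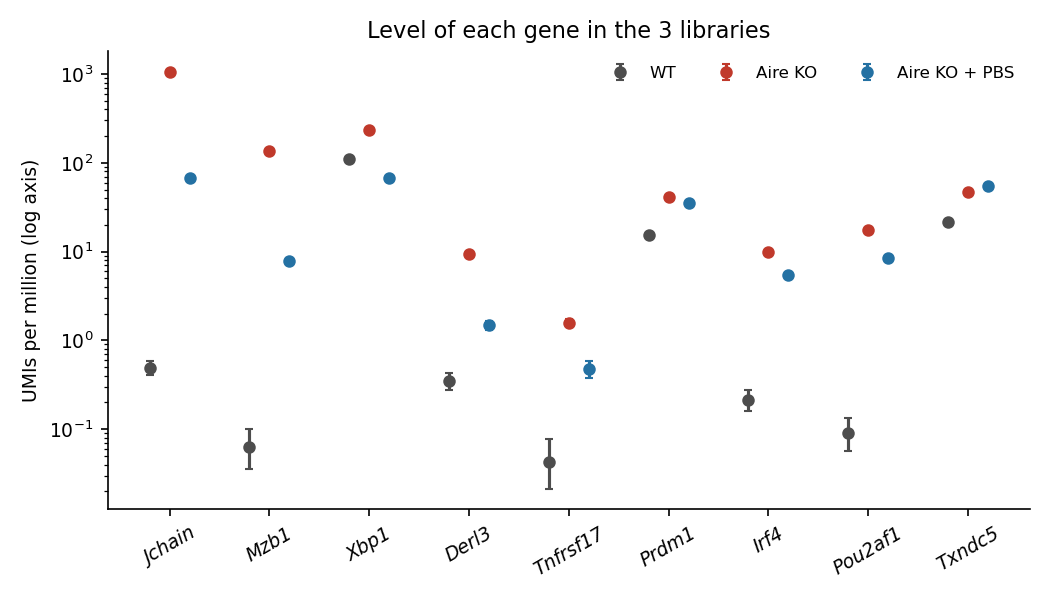
Level of each gene in CPM on a log axis, as points with exact 95% Poisson intervals (counting error only), in the WT, Aire KO and Aire KO + PBS libraries. Jchain spans 0.488 to 1062, while Xbp1, Prdm1 and Txndc5 lie within 15.6 and 237 in every library.

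Jchain (ENSMUSG00000067149, chr5:88519809-88527891, minus strand) encodes the chain that joins antibody monomers. It was at 0.488 CPM in WT (0.407 to 0.582, 125 UMIs), 1062 in KO (1059 to 1066, 373166 UMIs) and 67.1 in KO_PBS (65.9 to 68.3, 11932 UMIs). The log2 ratio was 11.09 in KO against WT and 7.10 in KO_PBS against WT. KO_PBS was thus far above WT and 15.8-fold below KO.

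Mzb1 (ENSMUSG00000024353), an ER chaperone that helps to assemble IgM and to secrete antibody, followed the same order. Its level was 0.0625 CPM in WT (0.0357 to 0.102, 16 UMIs), 137 in KO (136 to 138) and 7.94 in KO_PBS (7.53 to 8.37). The log2 ratios against WT were 11.10 in KO and 6.99 in KO_PBS, and KO_PBS was 17.3-fold below KO. In GENCODE M21 an exon of Mzb1 overlaps a model named SPATA24 on the same strand, which is in none of the deposited gene lists.

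The ER quality-control genes were higher in KO by much smaller ratios. Derl3 (ENSMUSG00000009092, chr10:75893413-75895941, plus strand), whose product draws misfolded proteins out of the ER, was at 0.348 CPM in WT (0.279 to 0.428), 9.38 in KO (9.07 to 9.71) and 1.48 in KO_PBS (1.31 to 1.67). Its log2 ratio was 4.75 in KO against WT and 2.09 in KO_PBS against WT, and the latter fell to 0.82 against the median gene. The level of Derl3 in KO_PBS was 6.34-fold below that in KO. Txndc5 (ENSMUSG00000038991, chr13:38500079-38528824, minus strand), a disulfide isomerase, was at 21.5 CPM in WT (21.0 to 22.1), 47.5 in KO (46.7 to 48.2) and 54.4 in KO_PBS (53.4 to 55.5). Txndc5 was the only one of the 9 with its highest level in KO_PBS. Its log2 ratio of 0.20 in KO_PBS against KO turned to -0.43 once set against the median gene. Txndc5 exons overlap Bmp6 and Gm31834 on the opposite strand, and the sources used here do not state strand-aware counting.

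Xbp1 (ENSMUSG00000020484, chr11:5520659-5525893, plus strand) encodes the transcription factor that expands the secretory apparatus. Its level was 110 CPM in WT (109 to 111), 237 in KO (235 to 239) and 66.8 in KO_PBS (65.6 to 68.0). It was the only one of the 9 that was lower in KO_PBS than in WT, with a log2 ratio of -0.72, which did not reach the ratio of 2. Against the median gene that ratio was -1.99.

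Among the transcription regulators, Irf4 (ENSMUSG00000021356, chr13:30749226-30766976, plus strand) and Pou2af1 (ENSMUSG00000032053, chr9:51213708-51240080, plus strand) were near absent from WT and kept a larger part of their KO level in KO_PBS than Jchain did. Irf4 was at 0.211 CPM in WT (0.159 to 0.275), 9.98 in KO (9.65 to 10.3) and 5.43 in KO_PBS (5.10 to 5.79). Pou2af1, a B cell coactivator of octamer-binding factors, was at 0.0899 CPM in WT (0.0570 to 0.135), 17.7 in KO (17.2 to 18.1) and 8.47 in KO_PBS (8.05 to 8.91). The log2 ratios of KO against WT were 5.56 for Irf4 and 7.62 for Pou2af1, and those of KO_PBS against KO were -0.88 and -1.06. Pou2af1 encloses the intronic gene Gm47828 on the same strand, which the WT and KO gene lists hold and the KO_PBS list does not.

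Prdm1 (ENSMUSG00000038151, chr10:44437177-44528501, minus strand) was at 15.6 CPM in WT (15.1 to 16.1), 41.0 in KO (40.3 to 41.7) and 35.0 in KO_PBS (34.1 to 35.9). Its log2 ratio in KO_PBS against WT was 1.17, which turned to -0.10 once set against the median gene. KO and KO_PBS differed by a log2 ratio of -0.23. Tnfrsf17 (ENSMUSG00000022496, chr16:11313812-11320074, plus strand) encodes BCMA, the receptor through which plasma cells receive survival signals. It was the scarcest of the 9, at 0.0430 CPM in WT (0.0215 to 0.0769, 11 UMIs), 1.58 in KO (1.45 to 1.72, 556 UMIs) and 0.472 in KO_PBS (0.377 to 0.585, 84 UMIs). The log2 ratio in KO against WT was 5.20, and KO_PBS was 3.35-fold below KO.

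In KO_PBS against WT, 8 of 9 genes were counted as higher, where 57.0% of all genes tested were, and 0 were lower, where 4.06% were. The median log2 ratio of the 9 was 3.46, against 1.27 for all genes tested. Once ratios were set against the median gene, 5 of 9 were counted as higher, where 29.6% of all genes were. Prdm1 (-0.10), Txndc5 (0.07) and Derl3 (0.82) were no longer among them. Xbp1 alone, 1 of 9, was counted as lower, where 23.1% of all genes were. In KO_PBS against KO, 6 of 9 were counted as lower (Jchain, Mzb1, Xbp1, Derl3, Tnfrsf17 and Pou2af1), where 4.70% of all genes tested were, and 0 were higher, where 39.9% were. The median of the 9 was -1.74, against 0.63 for all genes tested. Against the median gene 7 of 9 were lower, Irf4 (-1.51) being added, where 12.9% of all genes were. Both comparisons share a library with the contrast known when the genes were chosen. Their counts and medians are thus a description, and nothing more is read from them.

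**Figure D2:**
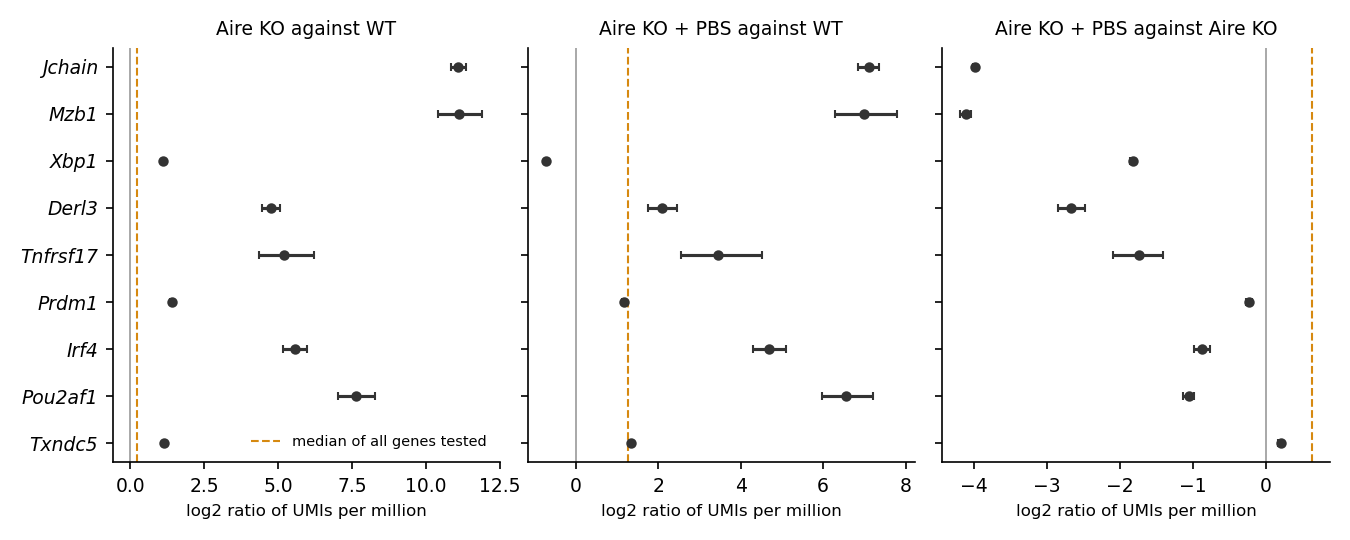
Log2 ratio of CPM for each gene in the 3 comparisons, with 95% intervals for counting error, the line at 0 and, dashed, the median of all genes tested (0.24, 1.27 and 0.63). In Aire KO + PBS against Aire KO all 9 points lie left of the dashed line, from -4.11 for Mzb1 to 0.20 for Txndc5.

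Immunoglobulin constant genes, the cargo of this secretory program, summed to 3.76 CPM (WT), 21003 (KO) and 1819 (KO_PBS). All 11 genes tested were counted as higher in KO than in WT, where 20.6% of all genes were. Antibody levels in that contrast were in view when the 9 genes were chosen, so nothing is read from this count. In KO_PBS against KO 7 were lower, where 4.70% of all genes were. Against the median gene 9 were lower, with Igha and Iglc3 added, where 12.9% of all genes were. Ighd was counted as higher, as were 39.9% of all genes, and its log2 ratio of 1.04 became 0.41 against the median gene. Ighg1 had 13 UMIs in WT and was at 6500 CPM in KO and 408 in KO_PBS, a log2 ratio of -4.00 between KO_PBS and KO. Igha, which uses the J chain in its polymers, was at 0.672, 343 and 246 CPM in the same order. Its log2 ratio between KO_PBS and KO was -0.48, which became -1.11 against the median gene. Jchain, with a log2 ratio of -3.98, was closer to Ighg1 and to the light chain Igkc (-3.66) than to Igha or Ighm (-0.36). The other IgG genes lay on both sides of Jchain, with Ighg2c at -7.69, Ighg2b at -5.15 and Ighg3 at -2.99. Ighg2b, Ighg2c and Iglc1 were also among the list genes with the largest ratios, at 935, 497 and 103 CPM in KO against 12, 1 and 2 UMIs in WT. IgG subclass genes, like the lambda constant genes, are near copies of one another, so reads may be split among them.

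Set against antibody RNA, the 9 genes did not fall alike between KO and KO_PBS. Jchain had 50.6 UMIs per 1000 immunoglobulin constant UMIs in KO (50.4 to 50.7) and 36.9 in KO_PBS (36.2 to 37.6), and Mzb1 had 6.53 and 4.37. The 7 other genes had more per antibody UMI in KO_PBS. The antibody sum itself had a log2 ratio of -3.53 in KO_PBS against KO. Any gene with a ratio above that rises by construction, so nothing is read from the count of 7. Irf4 was at 0.475 per 1000 in KO and 2.99 in KO_PBS, Pou2af1 at 0.841 and 4.66, and Tnfrsf17 at 0.0753 and 0.260. Prdm1 went from 1.95 to 19.2 and Txndc5 from 2.26 to 29.9 per 1000. In WT there were 963 immunoglobulin constant UMIs and 125 Jchain UMIs, or 130 per 1000 (108 to 155). Xbp1, Prdm1 and Txndc5 were at 29223, 4140 and 5723 per 1000 in WT. They were thus present where antibody RNA was scarce, and their ratios rise when the antibody sum alone falls.

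Of 11 plasma cell surface and identity genes, 10 were counted as higher in KO against WT, where 20.6% of all genes were, the exception being Sdc1 (519 and 523 CPM), which encodes the surface marker CD138 and is also expressed by epithelia. In KO_PBS against KO 5 were lower, where 4.70% of all genes were: Slamf7, Tent5c, Eaf2, Ell2 and Fkbp11. Against the median gene 8 were lower, with Sdc1, Cxcr4 and Itga4 added, where 12.9% of all genes were. Tent5c, a poly(A) polymerase that stabilises RNAs of secreted proteins, was at 1.43 CPM (WT), 30.8 (KO) and 8.68 (KO_PBS). The elongation factor Ell2, which favours the secreted form of antibody heavy chains, was at 20.9, 88.8 and 40.7, and its log2 ratio of 0.96 in KO_PBS against WT turned to -0.31 against the median gene.

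Wider lists of ER genes were then read beside the share of all genes. In KO against WT, 4 of 18 ER folding genes, 3 of 22 translocation and signal peptidase genes and 7 of 18 ER-associated degradation and unfolded protein response genes were counted as higher, where 20.6% of all genes were, and none of these was lower. The degradation count stood above that share. Against the median gene the counts were 2, 1 and 3, near or below the 14.8% of all genes, and 2 translocation genes (Sec62 and Srp14) were lower. Median log2 ratios were 0.84, 0.22 and 0.85, against 0.24 for all genes tested. Edem1, which feeds misfolded glycoproteins to degradation, was at 12.8 CPM (WT), 81.1 (KO) and 38.0 (KO_PBS). The chaperone Hsp90b1 was at 273, 691 and 310 CPM, and its log2 ratio of 0.18 in KO_PBS against WT turned to -1.09 against the median gene. In KO_PBS against KO, 4 folding genes (Hsp90b1, Pdia6, Creld2 and Prdx4) were lower and Pdia4 was higher, where 4.70% and 39.9% of all genes were. Set against the median gene, 8 folding genes were lower, with Hspa5, Sdf2l1, Fkbp2 and Ppib added, where 12.9% of all genes were, and Pdia4, at a log2 ratio of 0.89, was no longer counted. The signal peptidase subunit Sec11c, at 50.7, 116 and 42.0 CPM, was among 3 translocation genes that were lower in that comparison, and against the median gene 11 of 22 were. Edem1 and Edem2 were lower among the degradation genes, and against the median gene Herpud1 and Selenos were too.

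B cell genes summed to 37.5 CPM (WT), 197 (KO) and 244 (KO_PBS), with none of 14 at 0 in any library. The log2 ratio of that sum in KO_PBS against KO, 0.31, turned to -0.32 against the median gene. In KO_PBS against KO, 4 of 14 were higher, among them Pax5, the factor that holds B cell identity (6.55 and 13.2 CPM), a count below the 39.9% of all genes. Against the median gene 0 of 14 were higher, where 29.8% of all genes were, and the log2 ratio of Pax5 was 0.38. Cd79a was the 1 that was lower (35.3 and 16.1 CPM), where 4.70% of all genes were, and against the median gene Ms4a1 was lower too. Pou2f2, the OCT factor that Pou2af1 assists, was at 1.36, 16.3 and 36.3 CPM in this order of libraries, and its log2 ratio of 1.16 in KO_PBS against KO became 0.53 against the median gene. The ligands of the BCMA receptor are Tnfsf13b and Tnfsf13. Tnfsf13b was at 0.438, 3.55 and 4.07 CPM, and its log2 ratio of 0.20 in KO_PBS against KO turned to -0.43 against the median gene. Tnfsf13 was at 10.5 and 8.02 CPM in WT and KO and at 0.0956 in KO_PBS, whose gene list alone holds Tnfsfm13, a gene that overlaps it on the same strand.

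The libraries also differed in other tissue markers, whose part in these results was not tested. Melanocyte markers were summed at 505 CPM in WT, 177 in KO and 4331 in KO_PBS, and photoreceptor markers at 181, 74.1 and 2103. The melanocyte genes Pmel (81.0, 20.2 and 1192 CPM), Dct (339, 95.4 and 2033) and Mlana (28.8, 7.04 and 212) had this order. Of the 9 melanocyte genes 6 were counted as lower in KO than in WT, where 8.63% of all genes were. Mitf was higher (10.2, 32.3 and 101 CPM), as were 20.6% of all genes, and Sox10 was at 2.05, 2.07 and 14.6. The photoreceptor genes Gnat1 (16.2, 6.09 and 366 CPM), Prph2 (14.5, 3.66 and 142), Pde6b (3.97, 1.86 and 93.1) and Nrl (4.32, 1.78 and 84.7) were lowest in KO and highest in KO_PBS. Corneal epithelium markers were at 49108, 34893 and 22847 CPM, so the labelled tissue was present in each library, and Krt12 was at 26121, 13793 and 6205, Krt5 at 8829, 6456 and 2164 and the water channel Aqp5 at 9303, 4640 and 1895. Aqp5 is on the lacrimal list. Of the 10 epithelium genes none was counted as lower in KO than in WT, where 8.63% of all genes were. Krt14 (609, 1854 and 721 CPM) and Trp63 (88.4, 215 and 93.9) were higher, 2 of 10 where 20.6% of all genes were. Aldh3a1 was at 5762, 7158 and 7739 and Clu at 194, 280 and 815. Krt12 was counted as lower in KO once set against the median gene, as were 12.9% of all genes. T cell markers were at 5.24, 155 and 160 CPM and macrophage markers at 65.7, 838 and 839, with none at 0. Their log2 ratios in KO_PBS against KO, 0.04 and 0.0017, turned to -0.59 and -0.63 against the median gene.

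Levels were also read in barcodes with few UMIs. In the 25% of barcodes with the fewest UMIs, Jchain was at 951 CPM in KO and 69.8 in KO_PBS, near the 1062 and 67.1 of all barcodes. Mzb1 was at 115 CPM and Pou2af1 at 16.8 in these KO barcodes. Ratios of other genes moved further there, among them the log2 ratios against WT of Derl3 (4.75 to 3.78) and Tnfrsf17 (5.20 to 4.14) in KO and of Irf4 (4.69 to 5.84) in KO_PBS. Between KO_PBS and KO, that of Tnfrsf17 moved from -1.74 to -1.08. To compare barcodes at 1 depth, each with at least 1000 UMIs was thinned to 1000, which kept 96322 barcodes for WT, 106805 for KO and 97497 for KO_PBS. At this depth, a Jchain UMI was present in 0.0395% of barcodes for WT (0.0279 to 0.0541, exact binomial), 54.6% for KO (54.3 to 54.9) and 6.55% for KO_PBS (6.40 to 6.71). An even spread of the same UMIs would give 64.8% in KO and 6.63% in KO_PBS.

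The same shares were read in barcodes rich in corneal epithelium markers. In KO, 39.6% of 847 such barcodes had a Jchain UMI against 54.7% of the others, at median depths of 3422 and 2969 UMIs before thinning. In KO_PBS the shares were 5.67% of 882 and 6.56%, at 1476 and 1521 UMIs, and in WT 0 of 771, where 3 counts of the total, the limit used here for a count of 0, would be 0.389%. In KO a Jchain UMI was thus common in epithelium-rich barcodes too, so alone it does not single out plasma cells in these data. The source of the Jchain UMIs in those barcodes was not tested.

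KO also held a tail of barcodes with many Jchain UMIs. The variance of Jchain UMIs over barcodes was 2.00 times the mean in KO, 1.04 in KO_PBS and 1.29 in WT. The highest barcode had 25 Jchain UMIs of 1000 in KO, 7 in KO_PBS and 3 in WT. In KO, 246 barcodes had at least 10, with a median of 107.5 immunoglobulin constant UMIs against 13 over all KO barcodes.

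KO barcodes with more Jchain UMIs had more of 7 of the other genes. The share of all genes that rise along these bins was not computed, so nothing is read from that count. From barcodes with 0 Jchain UMIs to those with at least 8, Mzb1 went from 86.8 CPM (84.2 to 89.5, 48477 barcodes) to 533 (478 to 593, 636 barcodes). Over the same bins Xbp1 went from 195 to 656 CPM, Derl3 from 6.29 to 33.0, Tnfrsf17 from 1.09 to 12.6 (8 UMIs in the top bin) and Irf4 from 7.92 to 22.0. Pou2af1 went from 13.2 to 40.9 CPM and Txndc5 from 41.6 to 115. Prdm1 alone stayed level, at 41.3 and 42.5 CPM.

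**Figure D3:**
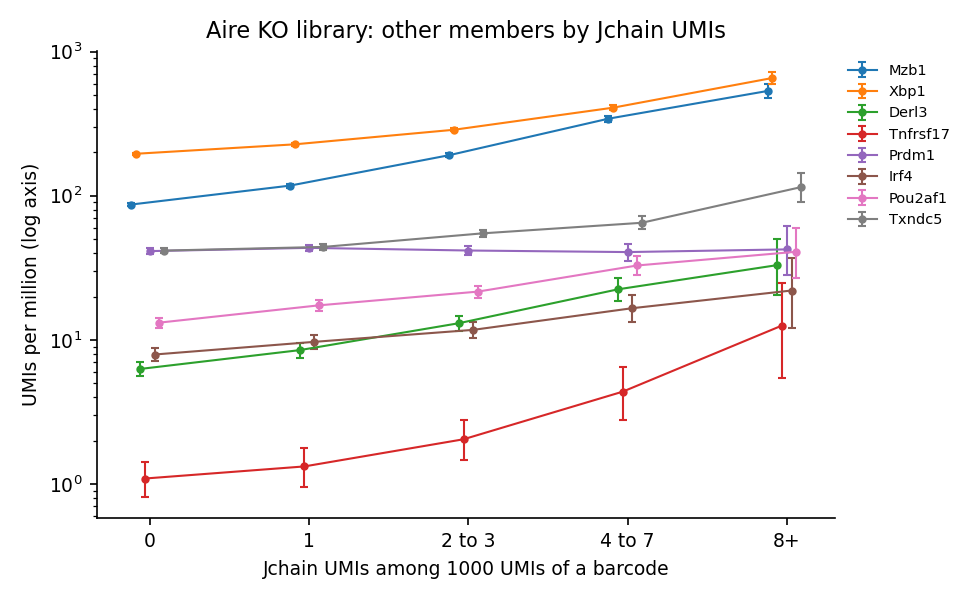
CPM (log axis) of the 8 other genes in KO barcodes thinned to 1000 UMIs, binned by their Jchain UMIs, with 95% Poisson intervals. Mzb1 climbs from 86.8 to 533 and Prdm1 stays between 40.7 and 43.5.

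Antibody genes were also read along the Jchain bins. In KO, from 0 to at least 8 Jchain UMIs, Ighg1 went from 4239 to 25377 CPM, Igha from 205 to 4657 and Ighm from 90.6 to 780, while Ighd, a marker of naive B cells, was at 7.55 and 6.29. In KO_PBS, from 0 through 1 to 2 or 3 Jchain UMIs (91111, 6127 and 249 barcodes), Ighg1 went from 418 to 457 and 791 CPM, and Igha from 245 to 269 and 1064. The 10 KO_PBS barcodes with 4 to 7 Jchain UMIs held 301 Igha UMIs, 220 of Igkc, 19 of Ighm and 0 of Ighg1. In the thinned WT barcodes, the 2 with 2 or 3 Jchain UMIs held 18 Igkc and 2 Igha UMIs and no other immunoglobulin constant UMI. These small sets were singled out after their values were seen.

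Pairs of the 9 genes were then counted within barcodes. No pair of 36 reached a ratio of 2 with an interval above 1 in WT, KO or KO_PBS, where 0.316%, 0.334% and 0.457% of pairs of one of these genes and any other gene did. A gene in 54.6% of barcodes, as Jchain in KO, cannot reach that ratio in a pair. With no minimum ratio, 16 of 36 KO pairs had an interval above the expected number, where 1.66% of such pairs did. None of 36 did in WT (0.781%) or in KO_PBS (1.51%). In WT only 6 of the 36 pairs were expected in at least 1 barcode, and a counted pair needed at least 3 barcodes. Both WT counts of 0 were thus close to fixed in advance, and nothing is read from them.

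The closest KO pair was Mzb1 with Derl3, found in 211 barcodes where 111 were expected, a ratio of 1.89 (1.65 to 2.17). Xbp1 with Tnfrsf17 was at 1.56 (1.18 to 2.04), Mzb1 with Pou2af1 at 1.55 (1.39 to 1.73) and Jchain with Mzb1 at 1.25 (1.22 to 1.27). Prdm1 was in none of the 16 pairs. Its ratio was 1.01 with Jchain (0.973 to 1.05) and 0.948 with Mzb1 (0.865 to 1.04).

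**Figure D4:**
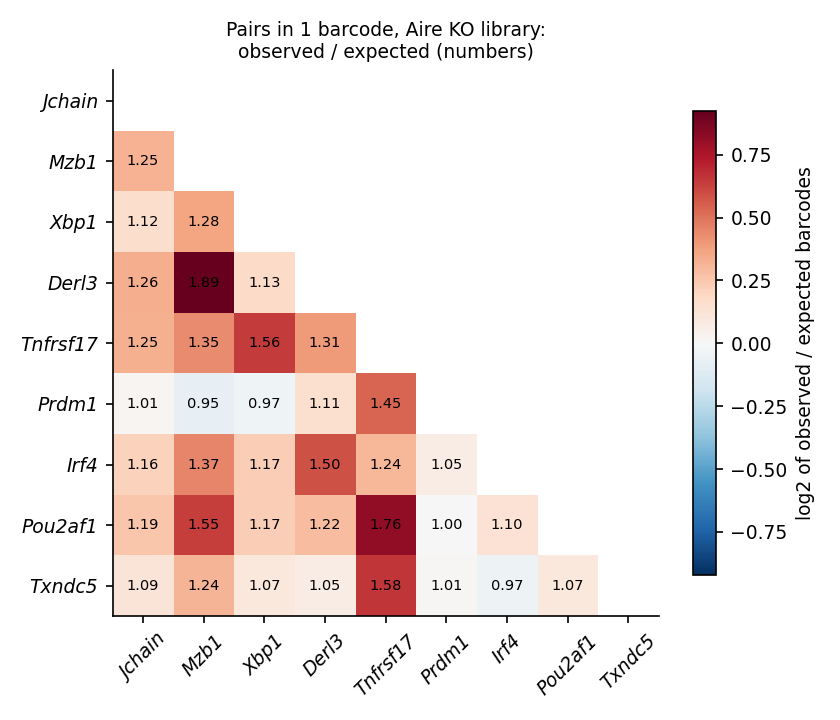
Number of KO barcodes (thinned to 1000 UMIs) holding both genes of a pair, over the number their separate shares give, with colour for the log2 of that ratio. The highest cell is Mzb1 with Derl3 at 1.89, and the Prdm1 cells with Jchain and Mzb1 are at 1.01 and 0.95.

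At least 4 of the 9 genes were found in 573 KO barcodes, or 0.536%, where 258 were expected from the separate shares. At least 5 were found in 35 where 9.17 were expected. KO_PBS had 6 barcodes with at least 4, or 0.00615%, where 2.33 were expected, and its share was 0.00308% with another random draw. WT had 0 of 96322, where 3 counts of the total would be 0.00311% and the exact upper limit is 0.00383%. Only 0.00394 WT barcodes were expected, so nothing is read from that 0. The 573 KO barcodes had 57.3 immunoglobulin constant UMIs each, against 20.1 in the others, and their summed ER folding level was 1.33 times that of the others (1.28 to 1.39). Median depth before thinning was 3186 UMIs for KO barcodes with 4 of the genes and 2950 for those with none.

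The genes most like the 9 in KO were those whose share was most raised in these 573 barcodes. The 10 leading genes were Lyplal1, Gm28375, Jrkl, Rrp1b, Eef1akmt4, Fkbp11, Slamf7, Tent5c, Myo1g and Ctse, with ratios from 3.49 to 2.43. The first 5 rested on 10 to 13 barcodes each and Ctse on 10, the least allowed. The 10 were ranked by ratio among 6920 genes, without intervals. Fkbp11, an ER prolyl isomerase of secretory cells, was in 6.46% of the 573 and 2.56% of the others, and Tent5c in 7.33% and 2.95%.

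Antibody RNA gave a choice of barcodes that did not use the 9 genes. Immunoglobulin-rich barcodes were those with the most immunoglobulin constant UMIs, at most 1% of a library, and levels in them were taken as CPM of the UMIs of all other genes. In KO this took 1049 barcodes with at least 114 of 1000 UMIs. Of the 9 genes, 8 were counted as at least 2-fold higher in them, where 0.992% of all genes tested were. Jchain was at 6311 CPM in these barcodes and 1022 in the others, a ratio of 6.18 (6.01 to 6.34). Mzb1 was 5.47-fold higher (5.04 to 5.92), Tnfrsf17 5.07-fold (2.00 to 10.7, 7 UMIs), Derl3 4.96-fold (3.52 to 6.80) and Pou2af1 4.16-fold (3.18 to 5.35). Xbp1 had a ratio of 3.53 (3.28 to 3.80), Irf4 of 2.78 (1.77 to 4.16) and Txndc5 of 2.38 (1.93 to 2.91). Prdm1, at 44.1 and 42.9 CPM, had a ratio of 1.03 (0.730 to 1.41). Ordered by the lower limit of the ratio, Jchain was at place 3 and Mzb1 at place 5 of 16025 genes.

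In KO_PBS the richest 701 barcodes needed only 7 immunoglobulin UMIs, and 4 of 8 genes tested were counted, where 0.854% of all genes were. Jchain was at 280 and 67.2 CPM, a ratio of 4.17 (3.59 to 4.81), at place 1 of 19435 genes by the lower limit and at place 112 by the ratio itself. Derl3 had a ratio of 6.42 (2.54 to 13.6, 7 UMIs), Irf4 of 4.36 (2.47 to 7.14) and Mzb1 of 2.83 (1.61 to 4.63). Xbp1 was not counted, at 1.11 (0.828 to 1.46), nor were Pou2af1, at 1.70 (0.813 to 3.15), Txndc5, at 1.43 (1.07 to 1.87), and Prdm1, at 0.811 (0.488 to 1.27). With at most 5% of barcodes, 0 were counted in KO_PBS and the Jchain ratio was 1.51. In WT, 268 barcodes had any immunoglobulin constant UMI, and 13 of the 42 thinned Jchain UMIs were in them.

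**Figure D5:**
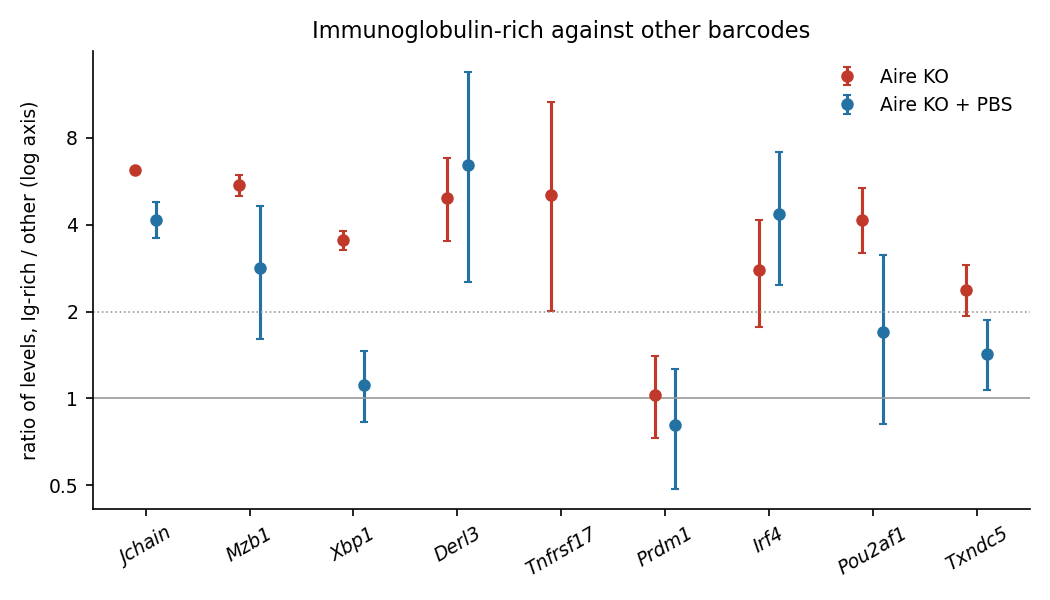
Ratio (log axis) of each gene's level in immunoglobulin-rich barcodes to that in the others, with 95% intervals, for the Aire KO and Aire KO + PBS libraries; genes with fewer than 3 UMIs in the rich barcodes are left out. Jchain stands at 6.18 and 4.17, Xbp1 at 3.53 and 1.11, and Prdm1 near 1 in both.

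The secretory genes beyond the 9 were partly raised in the same KO barcodes. Of the ER folding list 8 of 18 were counted, of plasma cell surface and identity genes 5 of 11, of degradation and unfolded protein response genes 4 of 18 and of translocation genes 3 of 22, against the 0.992% of all genes. Corneal epithelium markers were summed at 0.843 of their level in the other barcodes (0.833 to 0.853), keratocyte markers at 0.907 and T cell markers at 0.932. B cell markers were at 1.71 (1.52 to 1.92, 2 of 14 counted), and macrophage markers at 1.16 (1.08 to 1.24). In KO_PBS, B cell markers were at 1.44 (1.26 to 1.63), T cell markers at 1.21 (1.02 to 1.44) and macrophage markers at 1.10 (1.02 to 1.19). There, degradation and unfolded protein response genes were at 1.12 (1.04 to 1.20), epithelium markers at 1.01 (0.993 to 1.02) and keratocyte markers at 0.985 (0.942 to 1.03). None of the 3 ER lists had a gene counted in KO_PBS. Slpi, a secreted inhibitor of neutrophil proteases, was at place 1 by the lower limit of the ratio in the KO barcodes, at 32509 CPM against 3592, a ratio of 9.05 (8.94 to 9.16). Over whole libraries Slpi was at 3.88 CPM (WT), 3933 (KO) and 18.1 (KO_PBS), an order it shares with Jchain. Tent5c (5.20), Fkbp11 (4.60), Bhlha15 (7.25), a transcription factor of secretory cells, and Prdx4 (4.02), an ER peroxidase, were among the other leading genes. These were picked after their values were seen. Ovol3 (11.7, 12 UMIs), Ly6c2 (5.57) and Cacna1s (6.21) were among the leading genes too.

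Barcodes rich in other marker lists were chosen the same way. In those rich in plasma cell surface and identity genes, none of the 9 was counted in any library. Most of that list's summed level is Sdc1 (for WT 519 of 561 CPM, for KO 523 of 796, for KO_PBS 321 of 466). In the 946 such KO barcodes, Jchain had a ratio of 1.25 (1.18 to 1.32), Mzb1 of 1.44 (1.24 to 1.67), Xbp1 of 1.05 (0.922 to 1.20) and Prdm1 of 0.577 (0.365 to 0.866). Some of the 9 genes were higher in barcodes rich in other marker lists. In KO_PBS, Prdm1 was 2.78-fold higher (2.02 to 3.75, 44 UMIs) in the 473 barcodes rich in conjunctival goblet and mucosal epithelium markers and 2.43-fold higher (1.84 to 3.16) in the 702 rich in lacrimal acinar markers, a list whose summed level there is mostly Aqp5 (1895 of 1951 CPM). Most of the summed level of the goblet and mucosal list in KO_PBS is keratin. Krt13 was at 418, Krt19 at 207 and Krt4 at 142 of 789 CPM, with Muc5ac at 1.97. In KO the ratios of Prdm1 in such sets were 0.862 (0.552 to 1.28) and 0.958 (0.677 to 1.32). Jchain had ratios of 0.739 (0.473 to 1.10) and 0.788 (0.557 to 1.08) in the KO_PBS sets. Txndc5 was 2.76-fold higher (1.54 to 4.55) in the 117 KO barcodes rich in T cell markers, from 15 UMIs, and had a ratio of 1.04 (0.476 to 1.98) in KO_PBS. Pou2af1 was 3.44-fold higher (1.77 to 6.05) in the 414 KO_PBS barcodes rich in B cell markers, from 12 UMIs, and had a ratio of 1.27 (0.346 to 3.26, 4 UMIs) in KO. Irf4 was 2.92-fold higher (1.17 to 6.07) in the 446 KO_PBS barcodes rich in keratocyte markers, from 7 UMIs, and had a ratio of 0.819 (0.300 to 1.79) in KO. Each of these was counted in 1 of the 2 Aire KO libraries and not in the other, a difference that was not tested. These values are for barcodes thinned to 1000 UMIs and were not adjusted for the number of marker sets looked at.

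Barcode sequences were partly shared between libraries, with 2833 in both WT and KO, 2998 in both WT and KO_PBS, 3379 in both KO and KO_PBS and 84 in all 3. Of the 125 WT UMIs of Jchain, 2 were in barcodes shared with KO, or 1.60%, where 2.89% of all WT UMIs were. None of the 16 Mzb1 UMIs was, and 4 of the 89 Derl3 UMIs were, or 4.49%. These counts are small, and nothing is read from them.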

How the data were processed

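For each of 3 libraries the authors deposited a matrix of UMI counts, unscaled whole numbers by gene and barcode. Counting used Cell Ranger 7.0.1, per the file headers, and the build was mm10, per the submitters' processing notes. The annotation, the use of intronic reads and strand, and the barcode filter are not given in the sources used here. Genes were matched by Ensembl ID over the 30406 IDs in every list, which held 99.6%, 99.6% and 99.3% of the UMIs of WT, KO and KO_PBS. Coordinates are from GENCODE M21 and promoters from RefSeq, both on GRCm38.

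All barcodes were summed per library and scaled to CPM, with counts under 3 set to 3 in ratios. Called barcodes, tried as an alternative, had at least 500 genes and at most 5% mitochondrial UMIs. Expected pairs multiply the shares of both genes. No doublet caller was run, and leaving out the 5% of barcodes with the most UMIs was tried instead. All intervals are exact at 95%, a count of 0 is given the limit of 3 counts of the total, and both cover counting error only. Work used Python 3.11.15, numpy 2.4.6, scipy 1.17.1 and pandas 2.3.3. The rule of size and the count of genes per barcode were tested on simulated data.

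The 9 genes and the 17 gene lists were chosen with earlier results of these data known. Of the lists, the text names, in every comparison, the 4 highest and 4 lowest ratios of counted genes that reached 10 CPM in either library, plus others that show a list's range, picked after their values were seen. Genes most like the 9 had a UMI in at least 10 barcodes with at least 4 of them, and the 10 largest ratios are named. The count of genes at least 2-fold higher in immunoglobulin-rich barcodes, the Jchain bins, the levels per immunoglobulin UMI, the counts of list genes against the median gene and the pair count without a minimum ratio were added after the data were seen.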

Additional observations from a re-analysis of the deposited data

How the results depend on the processing

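The number of genes higher in KO than in WT (9) stayed within 1.5 times under every scaling, filter and barcode choice, the lowest being 7 against the median gene, without Xbp1 and Txndc5. The number lower in KO_PBS than in KO (6) ranged from 5 to 7. The number higher in KO_PBS than in WT moved from 8 to 5 against the median gene, where the log2 ratio of Prdm1 turned from 1.17 to -0.10. The share of KO barcodes with at least 4 of the genes, 0.536%, was 0.485% with another random draw, 0.0729% when thinned to 500 UMIs and 3.02% at 2000 UMIs, where fewer or more genes can be seen by construction. It was 4.79% for at least 3 genes and 0.0328% for at least 5. In KO_PBS the share, 0.00615%, was 0.00308% with another random draw, 0% at 500 UMIs, 0.0476% at 2000, 0.119% for at least 3 genes and 0% for at least 5. Pairs at a ratio of 2 went from 0 to 1 of 36 in KO at 500 and at 2000 UMIs and from 0 to 1 in KO_PBS at 2000 UMIs, and without a minimum ratio to 16 in KO. For those pair counts the cause of the move with depth was not tested. Genes at least 2-fold higher in immunoglobulin-rich barcodes of KO_PBS went from 4 to 0 with at most 5% of barcodes, an alternative chosen after seeing the data, as were that count itself and the one without a minimum ratio. Leaving out barcodes with the most UMIs moved none of these counts by over 1.5 times. No paired analysis was possible because each group is 1 library. With 1 library of pooled mice per group, genotype, treatment, dissection, gene list and library cannot be told apart.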

Other observations

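Gm30211, a gene named by number only, had 19 UMIs in WT and was at 102 CPM in KO and 3.79 in KO_PBS. It was at place 2 by the lower limit of the ratio in immunoglobulin-rich barcodes of both Aire KO libraries, with ratios of 7.13 (6.56 to 7.74) in KO and 6.01 (3.33 to 10.1) in KO_PBS. Vpreb3, which encodes a protein that assists antibody assembly in B cells, was raised in the same barcodes, with ratios of 6.15 in KO and 5.58 in KO_PBS, the latter from 6 UMIs. These genes were singled out after their values were seen.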
